A study of Homo sapiens with 12 samples.

Results

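The genes described here are 39 members of the NF-kB pathway and of its inflammatory output. They were chosen by symbol, out of 28512 named genes in each file, with earlier results of these data known. Shares of members set against all genes are thus descriptions. By role the members comprised 11 pathway genes, 24 genes of secreted products and 4 targets that stay with the cell. A total of 32 members averaged 10 or more across the libraries and were tested (11 of 11 pathway genes, 17 of 24 secreted and 4 of 4 cell targets). The 12 RNA-seq libraries come from 3 triple-negative breast cancer lines, each given 4 treatments for 72 h with 1 library per treatment. SUM159 received DMSO (the vehicle), 300 nM JQ1, 10 µM GSK2801, or both at these doses. MDAMB231 received the same series with 100 nM JQ1, and HCC1806 with 500 nM JQ1. SUM159 and MDAMB231 grew in DMEM/F12 (5% serum with insulin plus hydrocortisone) and HCC1806 in RPMI (10% serum), so for HCC1806 the line, its medium and its JQ1 dose cannot be told apart. JQ1 blocks the bromodomains of the BET proteins, and GSK2801 those of BAZ2A and BAZ2B. A line served as the replicate of a treatment (n = 3 lines), so p-values speak of how far lines differ, not repeat cultures of a line. In each line the JQ1 and the combined library share any JQ1 response peculiar to it, and p-values for JQ1 may for this reason be too small.

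NF-kB is a family of dimeric transcription factors built from the products of NFKB1, NFKB2, REL, RELA and RELB. Inhibitor proteins such as that of NFKBIA hold the dimers in the cytoplasm until signals from cytokine or Toll-like receptors lead to their breakdown. The freed dimers switch on genes of cytokines, chemokines, colony-stimulating factors and proteases, and also genes such as NFKBIA and TNFAIP3 that damp the signal again. In breast tumours this output is known for drawing leukocytes to the tumour and for invasion.

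A form of the site of NF-kB factors stands just before the start of several members. It is shown because 3 chemokine genes that carry it were among the members whose JQ1 effect differed between lines. This form, GGAATTTCC, was searched as printed and as GGAAATTCC, its reverse complement, in the 250 bases before each start in the RefSeq promoter table. It was present in 0.413% of all 35116 promoters of that length and in 11 of the 28 members that the table holds, namely NFKB1, REL, NFKBIA, NFKBIZ, CXCL8, CXCL1, CXCL2, CXCL3, CXCL5, CXCL10 and ICAM1. The letters TGANTCA, a form of the site of AP-1 factors, were present in 6.57% of all promoters and in 3 members, CXCL8, IL11 and IL1A, on either strand. The shares of all promoters are per listed start, whereas a member was counted if any of its listed starts matched. A match is a run of letters and not a measured binding site. The sequences below are from RefSeq on GRCh38.p14, 5′ to 3′ on the gene's strand, with the searched letters in capitals. They lie at chr4:73740419-73740505 (plus) for CXCL8, chr4:73869243-73869392 (plus) for CXCL1, chr4:74099253-74099282 (minus) for CXCL2, chr4:74038748-74038777 (minus) for CXCL3, chr4:102501209-102501328 (plus) for NFKB1, chr14:35404750-35404899 (minus) for NFKBIA, chr2:112784437-112784466 (minus) for IL1A and chr19:55370464-55370613 (minus) for IL11.
CXCL8: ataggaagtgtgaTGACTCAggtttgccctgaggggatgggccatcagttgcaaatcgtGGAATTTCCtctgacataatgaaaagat
CXCL1: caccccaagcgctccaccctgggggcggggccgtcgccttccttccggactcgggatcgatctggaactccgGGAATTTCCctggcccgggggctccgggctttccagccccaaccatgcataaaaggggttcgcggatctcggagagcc
CXCL2: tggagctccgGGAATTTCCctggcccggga
CXCL3: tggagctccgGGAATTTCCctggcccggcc
NFKB1: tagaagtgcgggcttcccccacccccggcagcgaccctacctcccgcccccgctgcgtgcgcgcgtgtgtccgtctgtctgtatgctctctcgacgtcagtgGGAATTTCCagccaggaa
NFKBIA: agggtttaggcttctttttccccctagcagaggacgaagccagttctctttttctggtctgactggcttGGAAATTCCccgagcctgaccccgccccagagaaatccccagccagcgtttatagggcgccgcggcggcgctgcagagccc
IL1A: tcattggcgttTGAGTCAgcaaaggtattg
IL11: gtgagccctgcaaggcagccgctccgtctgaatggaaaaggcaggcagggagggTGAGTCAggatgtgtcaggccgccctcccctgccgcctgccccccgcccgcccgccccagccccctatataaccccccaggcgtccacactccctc

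In CXCL8 the match began 91 bases before the RefSeq start, in CXCL1 and CXCL3 78 bases, in CXCL2 77 bases, in NFKBIA 81 bases and in NFKB1 48 bases. Bases that GENCODE places inside the gene were left out, apart from the short stretches shown for CXCL2, CXCL3 and IL1A. CXCL8, CXCL1, CXCL5, CXCL3 and CXCL2 lie in 1 cluster of 358.8 kb on chromosome 4 (73740506 to 74099293, hg38), and IL1A and IL1B lie within 63 kb on chromosome 2 (112773915 to 112836903). The longest open reading frames of CXCL1, CXCL2 and CXCL3 were identical at 90.7% to 94.4% of aligned bases. The authors' reads could have been divided between these 3 copies, so the value of each copy is uncertain. CXCL8 shared 50.5% with CXCL1 and is not affected in this way.

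The libraries held about 24200000 to 46800000 estimated reads and 15766 to 16797 genes above 0, and every value is relative to the upper quartile of its library, which the authors had set equal. The BET response marker HEXIM1 stood at 7083 with JQ1 against 2928 with DMSO (SUM159), 6483 against 3018 (MDAMB231) and 6270 against 2510 (HCC1806). HCC1806 carried epithelial transcripts (CDH1 at 14154 and KRT5 at 32771 in DMSO), and SUM159 and MDAMB231 carried VIM at 91350 and 93281 with CDH1 at 30.5 and 13.6. Of 8 epithelial markers, 6 were higher in HCC1806 than in SUM159 and 8 higher than in MDAMB231 (limma, adjusted p below 0.05). Of 5 mesenchymal markers, 4 were lower in HCC1806 and 1 higher against either line. SNAI2 in DMSO stood at 1237 in HCC1806 against 561.3 in SUM159, and CDH2 at 951.3 against 17.3 in MDAMB231. ESR1 was at 104.7 in HCC1806 and at most 12.9 in the DMSO libraries of the others. The summed leukocyte markers stayed at 23.3 to 43.8 in MDAMB231 and HCC1806 but ranged from 49.8 to 527.4 in SUM159, where 7 of the 15 were at 0 in all libraries and CD3E reached at most 1.2. Most of that sum with DMSO was PTPRC, at 421.9 with DMSO, 4.2 with JQ1, 60.4 with GSK2801 and 2.8 with both. CD14 stood at 80.9, 15.9, 130.4 and 49.1 in the same order, above PTPRC in each treated SUM159 library. The summed fibroblast and endothelial markers ranged from 11143 to 59987 in SUM159, mostly COL1A1, and from 310.3 to 543.2 in the other lines. In SUM159, COL1A1 went from 46871 with DMSO to 19899 with JQ1, and from 37932 with GSK2801 to 10269 with both. PDGFRA (6604 to 412.2) and COL3A1 (3890 to 43.5) were also lower with JQ1 there, in the same libraries as the SUM159 secreted genes below. The part of these transcripts in the SUM159 values below was not tested.

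**Figure D1:**
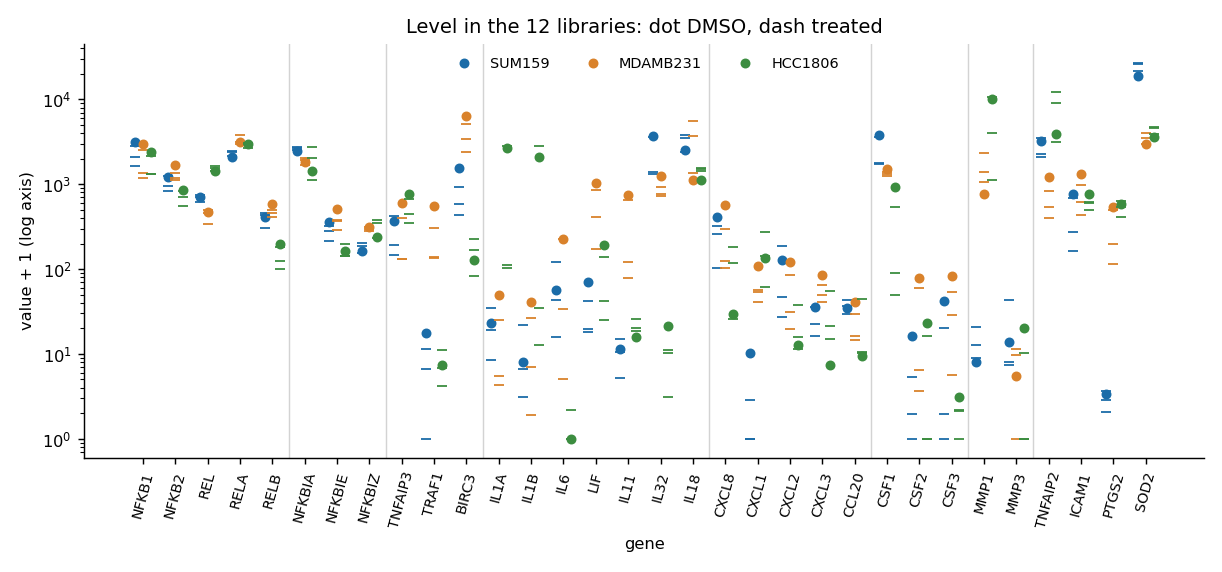
Deposited value plus 1 (log axis) of the 32 tested members in the 12 libraries, grouped by role, with a dot for the DMSO library of each line and dashes for its treated libraries. IL1A, IL1B and MMP1 stand highest in HCC1806, IL11, LIF, TRAF1 and BIRC3 in MDAMB231, and IL32 and SOD2 in SUM159.

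Of the 11 pathway genes 9 stood above 100 in every library, and the other 2, BIRC3 and TRAF1, were high in 1 line and low in another, as were many cytokine, chemokine and protease genes. In DMSO, NFKB1 stood at 3182 in SUM159, 2957 in MDAMB231 and 2385 in HCC1806. RELA, the subunit with the transactivation domain of the classical dimer, stood at 2074, 3148 and 2975 in the same order. Both subunits varied less over the lines than BIRC3 and TRAF1. The level of each still differed between SUM159 and either other line (limma, adjusted p below 0.05). BIRC3, an inhibitor of apoptosis in the receptor complexes, stood at 1549, 6392 and 126. TRAF1, an adaptor of the TNF receptor family, stood at 16.4, 545.6 and 6.4. Both were highest in MDAMB231 and lowest in HCC1806.

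IL1A and IL1B, the ligands of the interleukin-1 receptor, were transcripts of HCC1806. In DMSO, IL1A stood at 22.3 in SUM159, 49 in MDAMB231 and 2649 in HCC1806, and IL1B at 7, 39.9 and 2118. MMP1, the interstitial collagenase, followed the same line with 7, 763.4 and 10113. MDAMB231 led for 3 cytokines of the interleukin-6 family. LIF stood at 69.1, 1044 and 193.6, and IL11 at 10.6, 740 and 14.9. IL6 itself stood at 55.1 in SUM159 and 223.1 in MDAMB231, and HCC1806 listed it at 0 in 3 of its 4 libraries. SUM159 led for IL32 (3738, 1264 and 20.3), for the macrophage growth factor CSF1 (3832, 1491 and 921.8), for IL18 (2528, 1106 and 1132) and for the mitochondrial superoxide dismutase SOD2 (18664, 3004 and 3644). PTGS2, the inducible cyclooxygenase, stood at 2.3 in SUM159 against 532 and 590.7. CXCL8, the neutrophil chemoattractant, stood at 414.9 and 571.2 in SUM159 and MDAMB231 and at 28.8 in HCC1806.

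Over the 4 libraries of each line, 22 of the 32 tested members differed between HCC1806 and SUM159 (68.8%, against 70% of all 14232 tested genes), 10 higher in HCC1806 and 12 lower (34.5% and 35.5% of all genes). Between HCC1806 and MDAMB231 21 differed (65.6%, against 70.3% of all genes), 8 higher in HCC1806 and 13 lower (36.5% and 33.8%). Between SUM159 and MDAMB231 17 differed (53.1%, against 60.4% of all genes), 5 higher in SUM159 and 12 lower (32% and 28.5%). The shares that differed in either direction lie near the background. By direction, 31.2% of members were higher and 37.5% lower in HCC1806 than in SUM159. Against MDAMB231, 25% were higher and 40.6% lower in HCC1806, and 15.6% higher and 37.5% lower in SUM159. The higher shares lay below those of all genes and the lower shares above them, which was not tested. The calls are from limma with Benjamini-Hochberg adjustment over all tested genes at a threshold of 0.05, and the libraries of a line are its treatments and not repeat cultures. On the log2 scale IL1A was 4.83 ± 0.66 higher in HCC1806 than in SUM159 (limma, adjusted p = 0.000152) and 5.35 ± 0.66 higher than in MDAMB231 (7.53e-05), where ± is the standard error (SE) throughout. MMP1 was 8.65 ± 0.65 higher in HCC1806 than in SUM159 and 1.89 ± 0.65 higher than in MDAMB231. With quantile normalization the split against MDAMB231 was 6 higher and 17 lower.

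JQ1 alone lowered members of most roles and raised none past the threshold. Of the 32 tested members 7 fell and 0 rose (21.9% called, against 22.6% of all genes, with 13.1% lower and 9.52% higher). They were the subunit NFKB1, the feedback gene TNFAIP3, the cytokines IL1A, IL1B and LIF, the colony-stimulating factor CSF2 and the adhesion gene ICAM1. The share called was close to the background, and the share lower was above it. The median log2 change of the 32 members was −0.74 against −0.08 over all tested genes. By class, 2 of 11 pathway genes, 4 of 17 secreted genes and 1 of 4 cell targets fell, with medians of −0.34, −1.13 and −0.47.

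Among the subunits, NFKB1, which encodes the precursor of the p50 protein, fell in each line. It went from 3182 to 2088 (SUM159), 2957 to 1370 (MDAMB231) and 2385 to 1318 (HCC1806). Each JQ1 library lay below all 3 DMSO libraries. The change was −0.86 ± 0.12 (1.81-fold lower, n = 3 lines, limma, adjusted p = 0.00238). NFKB2 (−0.38 ± 0.16, 0.117), REL (−0.03 ± 0.15), RELA (0.10 ± 0.09) and RELB (−0.34 ± 0.26) did not pass. The inhibitor genes NFKBIA (0.40 ± 0.22), NFKBIE (−0.30 ± 0.23) and NFKBIZ (0.28 ± 0.18) did not pass either.

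TNFAIP3 encodes A20, an enzyme that edits ubiquitin chains and ends NF-kB signalling. It went from 369.1 to 145.5 (SUM159), 597.6 to 130.6 (MDAMB231) and 774.4 to 449.9 (HCC1806), a change of −1.44 ± 0.28 (2.70-fold lower, limma, adjusted p = 0.00825). All 3 lines moved down, and HCC1806 with JQ1 stayed above SUM159 with DMSO. The other feedback genes split by line: BIRC3 went from 1549 to 583 (SUM159), 6392 to 3373 (MDAMB231) and 126 to 225.5 (HCC1806) (−0.50 ± 0.47, adjusted p = 0.476). TRAF1 went from 545.6 to 133.3 in MDAMB231, was listed at 0 with JQ1 in SUM159 against 16.4, and stood at 6.4 and 10.2 in HCC1806 (−1.85 ± 0.79, 0.121).

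Of the 7 tested cytokine genes, 3 fell. In HCC1806, where it was high, IL1A went from 2649 to 110.5, in MDAMB231 from 49 to 4.6 and in SUM159 from 22.3 to 7.4. IL1B went from 2118 to 34.2, from 39.9 to 0.9 and from 7 to 2.1 in the same lines. Both genes were lower with JQ1 in every line, though SUM159 and MDAMB231 began near the low end of the scale. IL1A changed by −3.07 ± 0.77 (8.38-fold lower, limma, adjusted p = 0.0217) and IL1B by −3.90 ± 1.21 (14.9-fold lower, 0.0471). LIF went from 69.1 to 17 (SUM159), 1044 to 406.7 (MDAMB231) and 193.6 to 41.4 (HCC1806). Its change of −1.84 ± 0.30 (3.58-fold lower, limma, adjusted p = 0.00457) went down in all 3 lines, and its order over the lines was the same with JQ1 as with DMSO. IL32 (−1.02 ± 0.38, 0.0842), IL6 (−1.52 ± 0.96, 0.285) and IL11 (−1.13 ± 0.75, 0.305) did not pass. IL18, an inflammasome-processed cytokine, had a positive change in each line that did not pass (0.87 ± 0.35, 0.106).

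Among the colony-stimulating factors, CSF2, the granulocyte-macrophage factor, went from 15.2 to a listed 0 (SUM159), 76.9 to 5.5 (MDAMB231) and 22.4 to a listed 0 (HCC1806). The fitted change was −4.05 ± 0.53 (limma, adjusted p = 0.00206), and its size depends on the pseudocount, with −6.29 at a pseudocount of 0.1 and −1.84 at 10. It passed with each of these. CSF3, the granulocyte factor, went from 41 to a listed 0 (SUM159), 81.4 to 27.4 (MDAMB231) and 2.1 to 1.1 (HCC1806) (−2.49 ± 0.88, 0.071). CSF1 (−1.52 ± 0.69, 0.143) did not pass. ICAM1, the ligand of leukocyte integrins, went from 774 to 162.5 (SUM159), 1305 to 614.9 (MDAMB231) and 758.9 to 614.1 (HCC1806) (−1.21 ± 0.36, limma, adjusted p = 0.0391). Its fall was thus steep in SUM159 and slight in HCC1806. None of the 5 tested chemokines and neither tested protease passed over the 3 lines, with CXCL8 at −0.63 ± 0.94, CXCL1 at −1.13 ± 0.71, CXCL2 at −0.62 ± 0.74 and MMP1 at −0.55 ± 0.75. The cell targets PTGS2 (−0.88 ± 0.40, adjusted p = 0.139), SOD2 (0.26 ± 0.12, 0.16) and TNFAIP2 (−0.05 ± 0.57, 0.96) did not pass either.

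These calls rest on few lines: without SUM159 4 members were called (NFKB1, IL1A, LIF and CSF2), without MDAMB231 3 (NFKB1, LIF and CSF2), and without HCC1806 only BIRC3, with adjusted p-values of 0.0529 to 0.139 for the 7. Without the DMSO or the JQ1 library of MDAMB231 alone, the same 4 members were called each time (NFKB1, TNFAIP3, LIF and CSF2), and IL1B passed in only 7 of 24 alternatives.

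**Figure D2:**
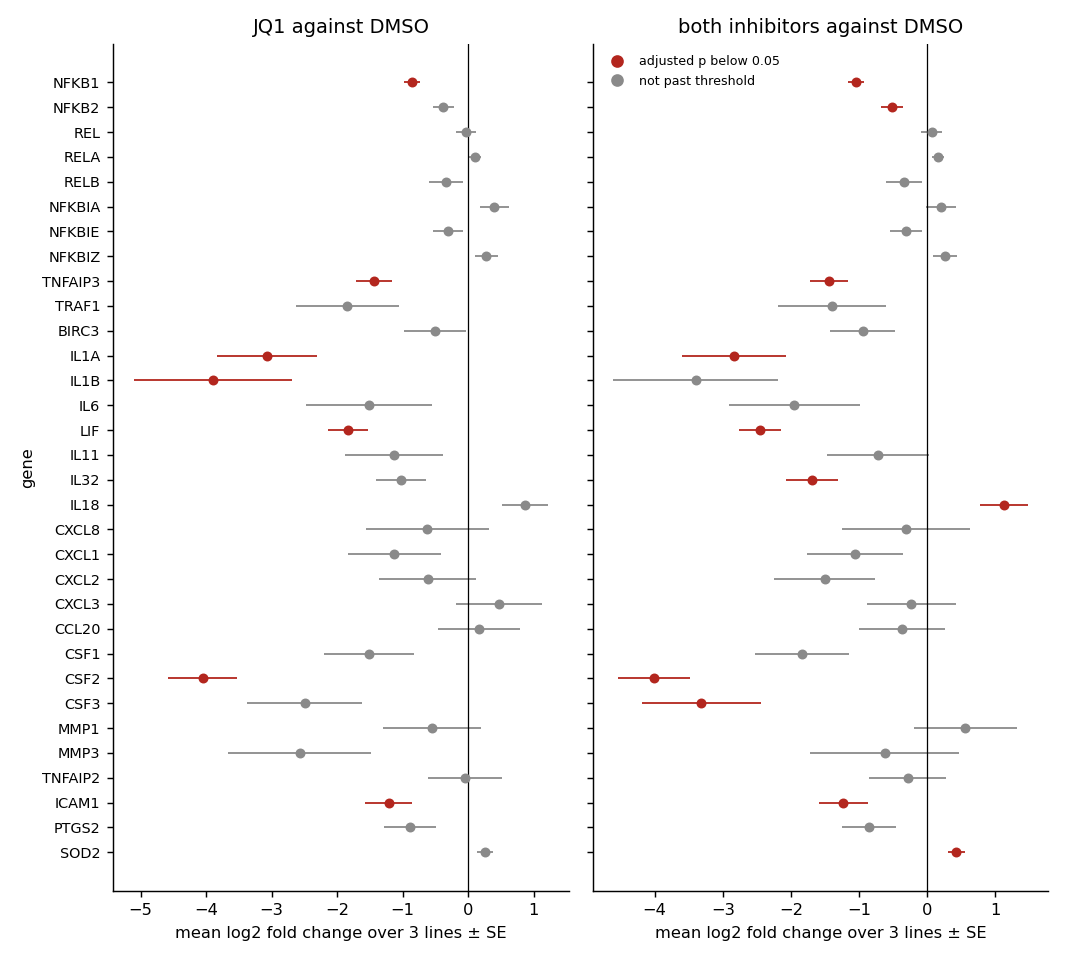
Mean log2 fold change over the 3 lines (points) with its SE (bars) for the 32 tested members, JQ1 against DMSO on the left and both inhibitors against DMSO on the right, red where the adjusted p is below 0.05. With JQ1 7 members lie to the left of 0 in red, and with both inhibitors 9 lie to the left and IL18 and SOD2 to the right.

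Within single lines, the median of the secreted genes lay further down with JQ1 than that of the pathway genes. The median log2 ratio of the 17 tested secreted genes to DMSO came to −1.41 (SUM159), −1.54 (MDAMB231) and −0.55 (HCC1806). The median of the 11 pathway genes was −0.55, −0.51 and 0.13, and that of all tested genes −0.12, −0.03 and 0.01. With 1 library per line and treatment these are descriptions without a test. At least 2-fold lower were 12 secreted genes in SUM159 (13.3% of all tested genes passed this fold), 11 in MDAMB231 (9.17%) and 7 in HCC1806 (10.1%). Of the pathway genes, 3, 3 and 0 were at least 2-fold lower in these lines. At least 2-fold higher were 0 secreted genes in SUM159 (4.43% of all genes), 1 in MDAMB231 (8.78%) and 4 in HCC1806 (10.9%), and no pathway gene in any line. The filter is a mean over all libraries, so genes near 0 in 1 line enter its median and counts. The HCC1806 secreted median of −0.55 is the ratio of CSF3, at 2.1 with DMSO and 1.1 with JQ1. The 12 secreted genes of SUM159 include IL1B (7 to 2.1), IL11 (10.6 to 4.3) and CXCL1 (9.4 to a listed 0). Over members with a mean of at least 100, the HCC1806 secreted median was −2.20, so it moves with the low genes that are kept.

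**Figure D3:**
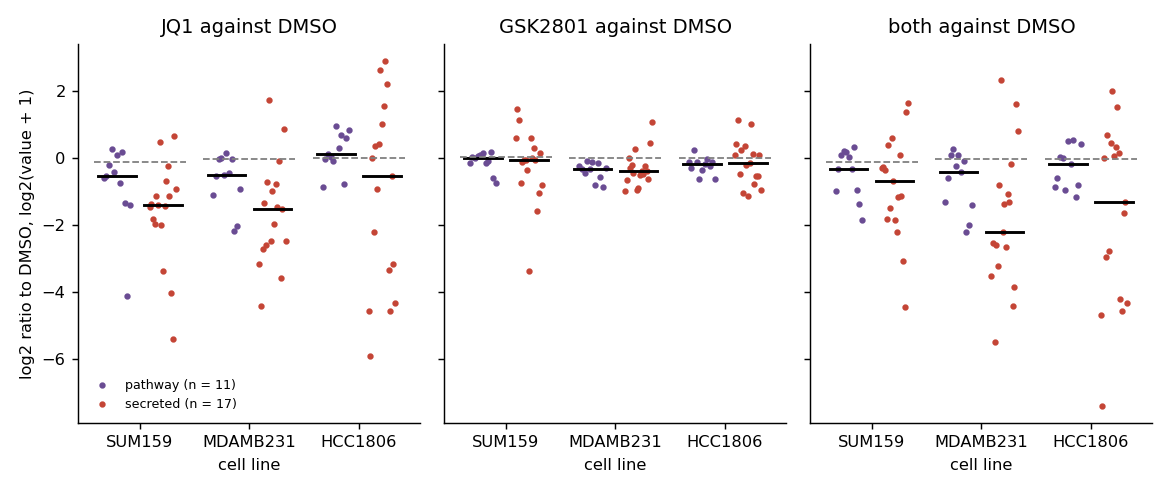
Log2 ratio to the DMSO library of the same line, on the log2(value + 1) scale, for each tested pathway gene (purple, n = 11) and secreted gene (red, n = 17) by line, with a black bar at the class median and a dashed line at the median of all tested genes. With JQ1 the secreted medians lie below the pathway medians in all 3 lines, and the HCC1806 secreted genes spread from −5.91 to 2.88.

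The upper end of this spread in HCC1806 held chemokines that moved against the other lines, and its lower end IL1B, IL1A, CSF2, MMP3 and CSF1. CXCL8 went down from 414.9 to 102 (SUM159) and 571.2 to 102.3 (MDAMB231), but up from 28.8 to 181.1 (HCC1806). In the presence of GSK2801 it went from 321.9 to 255.1, from 294.7 to 122 and from 24.6 to 117.3. HCC1806 thus had the lowest CXCL8 without JQ1 and, with JQ1 alone, the highest of the 3 lines. CXCL2, another ligand of the same neutrophil receptor, went from 125.4 to 45.7 (SUM159), 121.7 to 30.4 (MDAMB231) and 11.8 to 36.4 (HCC1806). CXCL3 went from 35.2 to 21.2, from 83.2 to 48.4 and from 6.4 to 53.5. The values of all 3 genes went down in the former lines and up in the latter. CXCL1 stood at 135.7 and 272.2 in HCC1806 without and with JQ1, but at 60.9 and 139.7 with GSK2801, so its HCC1806 library with both inhibitors was close to that with DMSO.

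**Figure D4:**
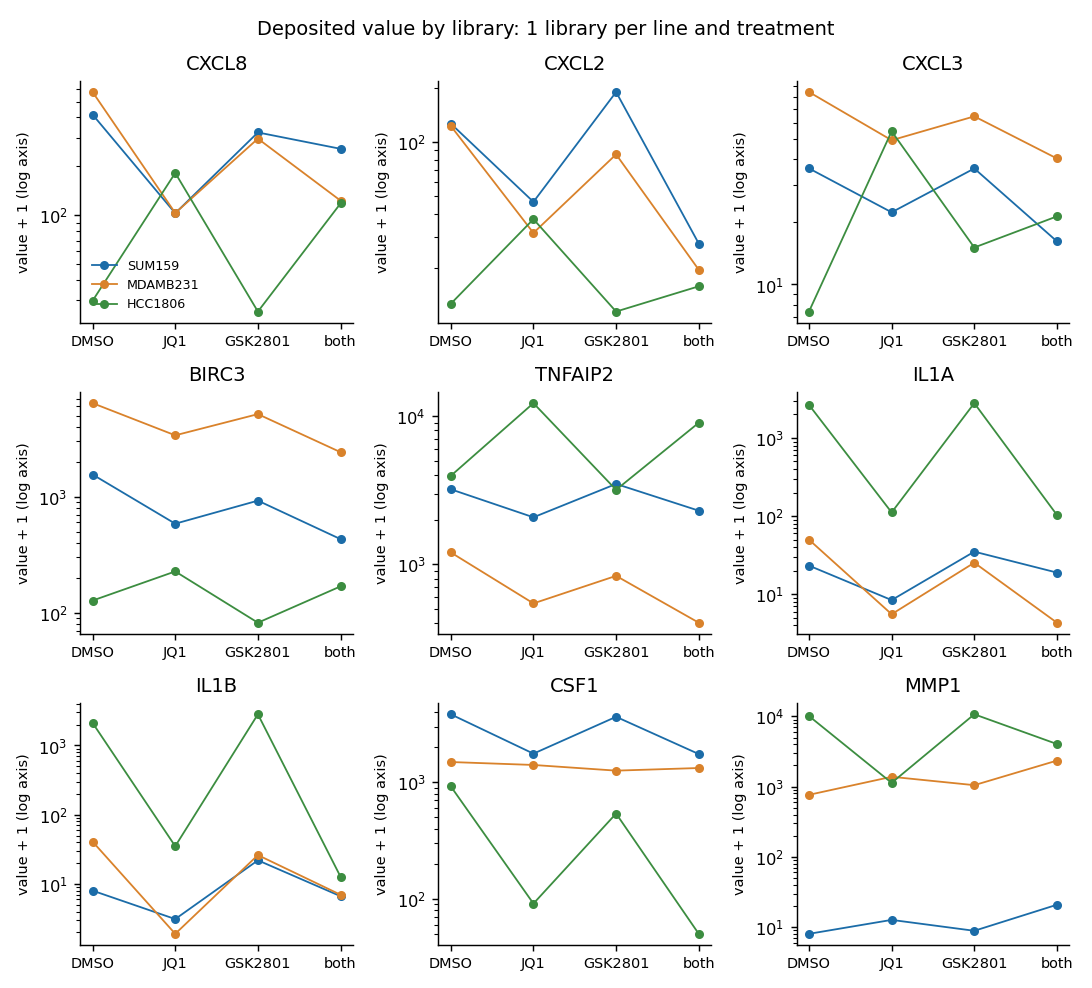
Deposited value plus 1 (log axis) for 9 members in the DMSO, JQ1, GSK2801 and combined libraries of each line, with 1 point per library and a line joining the libraries of 1 cell line. CXCL8, CXCL2, CXCL3, BIRC3 and TNFAIP2 are higher with JQ1 than with DMSO in HCC1806 and lower in SUM159 and MDAMB231. IL1A, IL1B and CSF1 drop furthest with JQ1 in HCC1806. MMP1 is lower with JQ1 in HCC1806 (1131, and 4039 with both inhibitors) and higher in SUM159 and MDAMB231.

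The difference in the JQ1 effect between HCC1806 and the mean of SUM159 and MDAMB231 was tested after taking, for each line, the mean of its JQ1 effects without and with GSK2801. It passed for 16 of 32 members (50%, against 25.1% of all genes), 10 with a higher effect in HCC1806 and 6 with a lower one (14.5% and 10.6% of all genes). What is left over in this model is how far each line strays from additivity, so these p-values speak neither of lines nor of cultures as replicates. The difference was 3.93 ± 0.52 for CXCL8 (limma, adjusted p = 0.00298), 3.09 ± 0.50 for CXCL2 (0.00584) and 2.52 ± 0.64 for CXCL3 (0.0272). It was 2.07 ± 0.15 for BIRC3 (0.000438) and 0.83 ± 0.11 for NFKBIA (0.00269), which stood at 1426 with DMSO and 2773 with JQ1 in HCC1806. Its values in SUM159 were 2483 and 2641, and those of MDAMB231 1835 and 2033. TNFAIP2, a TNF-induced gene, went from 3948 to 12231 in HCC1806, 3204 to 2072 in SUM159 and 1200 to 542.3 in MDAMB231, a difference of 2.42 ± 0.09 (limma, adjusted p = 0.000137).

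A smaller fall in HCC1806, and not a rise, gave a positive difference for TNFAIP3 (0.71 ± 0.21), ICAM1 (1.18 ± 0.24) and CSF3 (2.55 ± 0.74). CSF3 had at most 2.1 in HCC1806 and had little room to fall there. IL11 had a difference of 1.97 ± 0.50, with 14.9 and 19.4 in HCC1806 without and with JQ1 against 740 and 121.4 in MDAMB231. The opposite sign was found for 6 secreted genes. IL1A (−2.65 ± 0.35) and IL1B (−4.50 ± 0.79) fell further in HCC1806 than in the other lines, where they were low to begin with. CSF1 went from 921.8 to 90 in HCC1806, 3832 to 1760 in SUM159 and 1491 to 1407 in MDAMB231 (−2.84 ± 0.12, limma, adjusted p = 0.000137). MMP1 went from 10113 to 1131 in HCC1806 and from 763.4 to 1380 in MDAMB231, with 7 and 11.7 in SUM159 (−3.26 ± 0.44, limma, adjusted p = 0.00332). MMP3, which encodes stromelysin, reached at most 42.5 in any library and was listed at 0 with JQ1 in HCC1806 (−3.56 ± 1.02). Its mean of 10.09 only just passed the filter. The 42.5 was SUM159 with both inhibitors, a library that also enters the SUM159 JQ1 effect in this difference. IL18 rose less in HCC1806 than in the mean of the others (−0.96 ± 0.14).

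When any 1 HCC1806 library was left out, 5 of the 16 were called: BIRC3, CSF1, MMP1 and TNFAIP2 each time, with IL18 or CXCL3 as the fifth. TNFAIP3 passed in 4 of 19 alternatives, CXCL3 in 5 of 18, MMP3 in 6 of 18, CSF3 in 7 of 18 and IL11 in 8 of 19.

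Counted by direction in both pairs of libraries (JQ1 against DMSO, and both against GSK2801), 11 of the 32 tested members had lower values with JQ1 in all 3 lines. They were NFKB1, NFKB2, TNFAIP3, IL1A, IL1B, LIF, IL32, CSF2, CSF3, ICAM1 and PTGS2 (34.4%, against 22.6% of all tested genes with this pattern). A further 6 were lower in SUM159 and MDAMB231 and higher in HCC1806 (18.8%, against 3.98% of all tested genes): BIRC3, CXCL8, CXCL2, CXCL3, TNFAIP2 and CCL20, a chemokine singled out after its values were seen (8.5 and 43.3 in HCC1806 without and with JQ1, 9.4 and 9.6 with GSK2801). RELA and IL18 were higher in all 3 lines (6.25%, against 16.2% of all tested genes), and MMP1 was higher in SUM159 and MDAMB231 and lower in HCC1806. The remaining 12 had other or mixed patterns. Direction was counted at any size. With DMSO and JQ1, RELA stood at 3148 and 3159 in MDAMB231, and NFKB2 at 854.5 and 835.3 in HCC1806. PTGS2 in SUM159 (2.3 and 1.1) and CSF3 in HCC1806 (2.1 and 1.1) were near 0. These shares are a description with no test. Of the 6, CXCL8, CXCL2 and CXCL3 carry the GGAATTTCC letters printed above, as do NFKB1 and ICAM1 among the 11. REL, NFKBIA, NFKBIZ and CXCL1, with other or mixed patterns, carry them too. LIF and CSF3 among the 11 are not in the promoter table and could not be searched. A link between the letters and the patterns was not tested.

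SUM159 and MDAMB231, which shared a medium but not a JQ1 dose, differed in the JQ1 effect for 7 members (21.9%, against 29.2% of all genes), 5 with a higher effect in SUM159 and 2 with a lower one (11.4% and 17.9% of all genes). IL18 went from 2528 to 3502 (SUM159) and 1106 to 3657 (MDAMB231), a difference of −1.31 ± 0.16 (limma, adjusted p = 0.00274). CSF1 differed by −1.09 ± 0.13 (0.00272), with a fall in SUM159 and nearly level values in MDAMB231. The effect was more negative in MDAMB231 for IL11 (2.50 ± 0.57), IL1A (1.68 ± 0.41), PTGS2 (1.26 ± 0.37), TNFAIP2 (0.48 ± 0.11) and NFKB1 (0.39 ± 0.12). PTGS2 reached at most 2.6 and IL11 at most 14.2 in SUM159, so both had little room to fall there, and IL11 stood at 9.6 with GSK2801 and 14.2 with both. Only IL18 and CSF1 passed when any 1 SUM159, MDAMB231 or HCC1806 library was left out, and the number of calls then ran from 2 to 5.

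GSK2801 alone changed no member past the threshold (0 of 32, against 0% of all genes). At an unadjusted p below 0.05 limma called 1 member and 161 of the 14232 genes, and no other tool was run. That member was CXCL1 (−1.81 ± 0.71, adjusted p = 1), at 9.4 with DMSO and a listed 0 with GSK2801 in SUM159, 106.3 and 56 in MDAMB231, and 135.7 and 60.9 in HCC1806. Median log2 ratios to DMSO were −0.01 in SUM159, −0.34 in MDAMB231 and −0.18 in HCC1806 for the pathway genes and −0.07, −0.39 and −0.14 for the secreted genes. NFKB1 (−0.17 ± 0.12), TNFAIP3 (−0.21 ± 0.28), LIF (−0.51 ± 0.30) and CXCL8 (−0.51 ± 0.94) lay within about 2 standard errors of 0. IL1B and IL6 were higher with GSK2801 than with DMSO in SUM159, at 21 against 7 and 121.4 against 55.1, which is 1 library each.

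With both inhibitors, 9 members fell and 2 rose against DMSO (34.4% called, against 34.8% of all genes; 28.1% lower against 19.8%, and 6.25% higher against 15%). NFKB1 fell to 1620 in SUM159, 1184 in MDAMB231 and 1309 in HCC1806 (−1.05 ± 0.12, limma, adjusted p = 0.000434). NFKB2, which encodes the precursor of the alternative pathway, fell from 1220 to 960, from 1706 to 1128 and from 854.5 to 559.8 (−0.52 ± 0.16, limma, adjusted p = 0.0323). TNFAIP3 (−1.44 ± 0.28), IL1A (−2.83 ± 0.77) and ICAM1 (−1.23 ± 0.36) changed by about as much as with JQ1. LIF fell to 18.9, 171.4 and 24.2 (−2.46 ± 0.30, limma, adjusted p = 0.000661). IL32 went from 3738 to 1314, from 1264 to 718.3 and from 20.3 to 2.1 (−1.70 ± 0.38, limma, adjusted p = 0.0091). CSF2 (−4.01 ± 0.53) and CSF3 (−3.32 ± 0.88) also fell, with listed zeros in HCC1806. IL1B missed the threshold (−3.40 ± 1.21, 0.0558).

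The 2 rises were in IL18 and SOD2. IL18 went from 2528 to 3835 (SUM159), 1106 to 5486 (MDAMB231) and 1132 to 1549 (HCC1806) (1.12 ± 0.35, 2.17-fold higher, limma, adjusted p = 0.0361). SOD2 went from 18664 to 25976, from 3004 to 4002 and from 3644 to 4763 (0.43 ± 0.12, 1.34-fold higher, limma, adjusted p = 0.026). Both genes were higher in all 3 lines, SOD2 by a similar small factor and IL18 mostly in MDAMB231. The median log2 ratio to DMSO came to −0.70 (SUM159), −2.22 (MDAMB231) and −1.32 (HCC1806) for secreted genes, and −0.34, −0.41 and −0.18 for pathway genes. At least 2-fold lower were 8 of the 17 secreted genes in SUM159 (15.2% of all genes), 12 in MDAMB231 (14.3%) and 9 in HCC1806 (13.5%). Without SUM159 7 members were called, without MDAMB231 5 and without HCC1806 8, of which 7, 5 and 5 are among the 11. Without the MDAMB231 DMSO library 5 were called, without its combined library 6 and without the HCC1806 DMSO library 7. NFKB1, TNFAIP3, LIF and CSF2 were called in each of these fits.

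**Figure D5:**
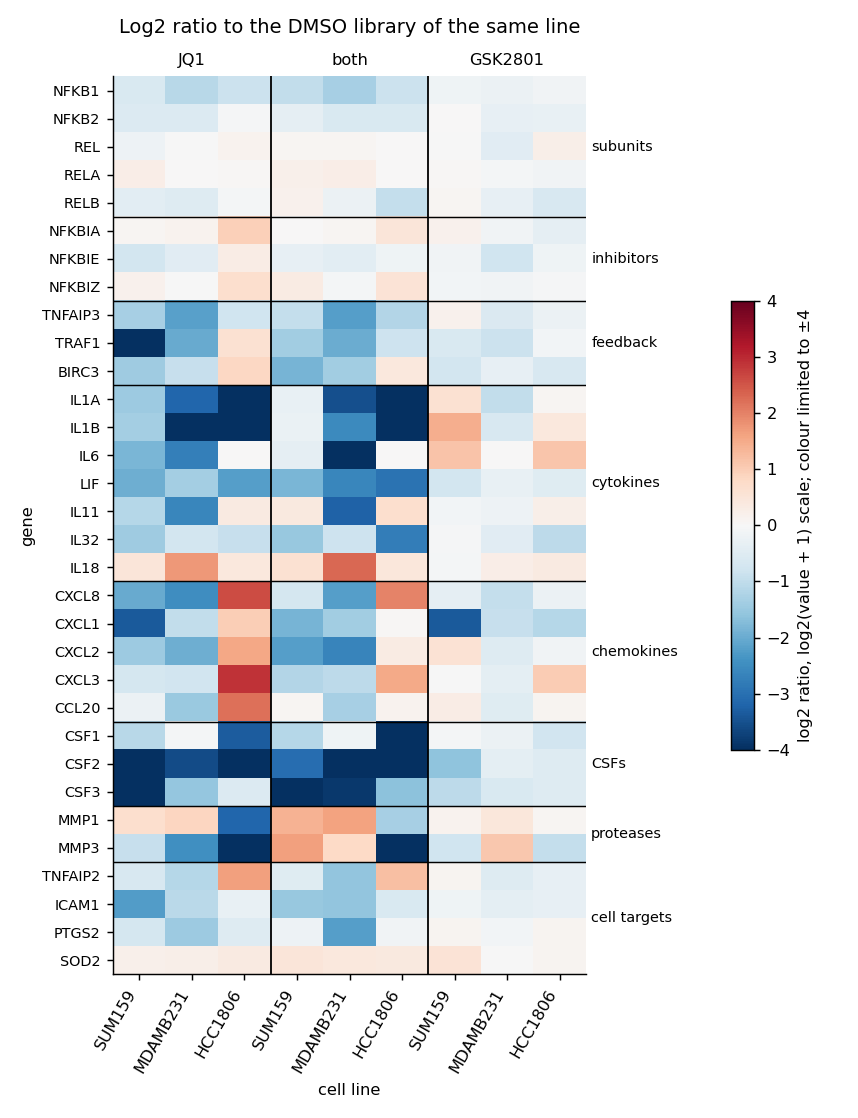
Log2 ratio to the DMSO library of the same line on the log2(value + 1) scale, for the 32 tested members (vertical, by role) in each treatment and line (horizontal), blue for lower and red for higher, with the colour limited at 4 in either direction. The JQ1 and combined blocks are mostly blue for cytokines and colony-stimulating factors, and the GSK2801 block is paler except for CXCL1 in SUM159 (−3.38). The chemokines of HCC1806 are red in the JQ1 block (median 2.21) and fainter in the combined block (median 0.32, from 0.04 to 1.99).

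Adding GSK2801 to JQ1 gave no member past the threshold (0 of 32, against 0% of all genes; limma called 0 members and 1031 genes at an unadjusted p below 0.05). The change from JQ1 to the combination was −0.20 ± 0.12 for NFKB1, −0.62 ± 0.30 for LIF, −0.68 ± 0.38 for IL32 and 0.25 ± 0.35 for IL18. In SUM159 the secreted genes stood above JQ1 alone, with a median log2 ratio of 0.96, and in MDAMB231 and HCC1806 below it, with −0.29 and −0.75. The SUM159 median is the ratio shared by CSF2 and CSF3, each at a listed 0 with JQ1 and at 0.94 with both inhibitors. In that combined library 1 read was worth 0.9449, so the size of this median rests on genes near 0. Of the 17 SUM159 ratios, 13 were above 0 and 4 below, and CXCL1 (a listed 0 to 1.9) and IL1B (2.1 to 5.7) were among the 13. The line medians differed in sign, a difference that was not tested. Departure from additive log2 effects also gave 0 members (0% of all genes; 0 members and 171 genes at an unadjusted p below 0.05 by limma). Against GSK2801, the combination lowered 7 members and raised 0 (21.9%, against 29% of all genes, with 17.2% lower and 11.8% higher): NFKB1 (−0.88 ± 0.12), TNFAIP3 (−1.23 ± 0.28), IL1A (−2.73 ± 0.77), IL1B (−3.81 ± 1.21), LIF (−1.94 ± 0.30), IL32 (−1.18 ± 0.38) and CSF2 (−3.17 ± 0.53). Fitted on only the libraries compared, 0 were called (adjusted p from 0.0556 to 0.127 for the 7), so these calls draw on the spread over all 12 libraries. Without SUM159 4 members were called, without MDAMB231 2, and without HCC1806 4, of which only NFKB1 is among the 7. Leaving out the GSK2801 library of MDAMB231, or that of HCC1806, or the combined library of HCC1806, gave 4 each time (NFKB1, TNFAIP3, LIF and CSF2).

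Other genes of the pathway moved in both directions with JQ1. Of 33 tested kinases, adaptors and regulators, 8 fell and 2 rose, where 13.1% of all genes fell and 9.52% rose. Among these, the kinase IKBKE (−1.41 ± 0.33), the nuclear inhibitor NFKBID (−1.25 ± 0.28) and the receptor-associated kinase IRAK1 (−1.03 ± 0.17) fell. The TNF receptor adaptors TRADD (0.95 ± 0.22) and RIPK1 (0.55 ± 0.15) rose. Of 20 tested receptors upstream of NF-kB 5 fell and 0 rose, among them the decoy receptor IL1R2 (−3.36 ± 0.83) and the Toll-like receptors TLR3 (−2.93 ± 0.44) and TLR6 (−1.38 ± 0.20). Of 12 tested receptors for the secreted members, 2 fell (IL18R1, −3.09 ± 0.45, and IL20RB, −1.39 ± 0.33) and 1 rose (IL11RA, 1.27 ± 0.34). Of 15 tested further metalloproteases and their inhibitors, 2 rose (MMP15, 1.55 ± 0.22, and MMP17, 1.18 ± 0.16) and 0 fell. With both inhibitors the counts were 8 lower and 2 higher, 7 and 0, 3 and 1, and 0 and 4 in the same order, where 19.8% of all genes fell and 15% rose. Lists this short were not tested as groups.

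The 7 members that did not reach a mean of 10 were TNF, IL24, CXCL5, CXCL10, CCL2, CCL5 and MMP9. Their values ran from a listed 0 to 35.9, the latter for MMP9, a gelatinase, in HCC1806 with DMSO. TNF, the cytokine most often used to start NF-kB signalling, reached at most 10.2. CCL2 and CXCL5 were listed at 0 in 11 and 10 of the 12 libraries. CXCL10 stood at 22.4 with DMSO and 10.6 with GSK2801 in HCC1806 and was listed at 0 there in both libraries with JQ1. These members were left out of the main fits. In the alternative with no low-value filter, IL24 passed for both inhibitors against DMSO. CXCL10 and MMP9 passed there for the JQ1 effect in HCC1806 against the mean of the other lines. IL24, MMP9, TNF and CCL5 each passed there in some comparison of levels between lines. At values this low the size of such differences is uncertain.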

How the data were processed

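Per the submitters' processing notes, the authors used STAR 2.4, Salmon 0.60 and hg38. The 12 deposited files hold 1 signal value per gene, and from the values, the authors had scaled estimated reads so that the upper quartile above 0 was 1663.93 in every library. Only 67.2% to 69.3% of values were whole multiples of 1 read (tolerance 0.02 reads), so no count test was run. The 27 entries whose symbols had become dates (0.168% to 0.218% of the signal) were left out, leaving 28512 genes. The labels name both a KAPA Stranded and a TruSeq RNA v2 kit, so whether counting used strand is not given in the sources used here.

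Genes with a mean of at least 10 (14232) were tested on log2(value + 1) with limma 3.58.1 (R 4.3.3, variance trend, Benjamini-Hochberg adjustment, threshold 0.05). Treatment contrasts had the cell line as a block, level contrasts had treatment as a term, and JQ1 effects were fitted within line. Fold changes are on this scale, which understates those of low genes. The replicate number is the cell line, and deviations from the group means correlated at 0.872 to 0.972 within a line. The scripts were tested on simulated data. Alternatives were other pseudocounts, filters, scalings and designs, and leaving out each library or line.

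Members past the threshold were named with values, of the others those at 100 or more with DMSO in a line, and from the other lists at most 3 rises and 3 falls per contrast. The members and lists were chosen with earlier results of these data known. Positions are from GENCODE on hg38, and promoters from RefSeq on GRCh38.p14.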

Additional observations from a re-analysis of the deposited data

Results flagged for a closer look

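The JQ1 effect of HCC1806 differed from the mean of SUM159 and MDAMB231 in 16 members by a test of the difference itself (limma, adjusted p below 0.05). On the log2 scale the difference was positive in HCC1806 for NFKBIA (0.829), TNFAIP3 (0.708), BIRC3 (2.068), IL11 (1.967), CXCL8 (3.929), CXCL2 (3.085), CXCL3 (2.516), CSF3 (2.553), TNFAIP2 (2.424) and ICAM1 (1.176). It was negative for IL1A (-2.646), IL1B (-4.502), IL18 (-0.962), CSF1 (-2.837), MMP1 (-3.26) and MMP3 (-3.559). The JQ1 effect of SUM159 differed from that of MDAMB231 in 7 members, with NFKB1 at 0.385, IL1A at 1.681, IL11 at 2.499, TNFAIP2 at 0.483 and PTGS2 at 1.263 higher in SUM159, and IL18 at -1.31 and CSF1 at -1.087 lower. In both comparisons the JQ1 dose differs between the lines, and in the first the medium does too, so line, dose and medium cannot be told apart.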

How the results depend on the processing

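The replicate number is the cell line, so the replicate block removes level differences between lines. With no replicate block 0 members were called for JQ1, for the combination and for the combination against GSK2801, where 7, 11 and 7 were called with it. Fitted on only the libraries compared, these counts were 4, 3 and 0. Quantile normalization left 4 for the combination against GSK2801, and without the variance trend 10 differed in the JQ1 effect of HCC1806 (5 higher and 5 lower). Leaving out 1 line or library gave 1 to 9 calls for JQ1, 5 to 11 for the combination and 2 to 8 for the combination against GSK2801. It gave 5 to 15 for the JQ1 effect of HCC1806 and 2 to 5 for that of SUM159 against MDAMB231. Level counts then ran from 18 to 22 (HCC1806 against MDAMB231), 21 to 25 (HCC1806 against SUM159) and 14 to 20 (SUM159 against MDAMB231). Counts that were 0 remained 0.

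Of 108 class medians under alternatives, 100 moved by less than 1 SD between lines. The HCC1806 secreted median for the combination went from -1.324 to -0.279 with a pseudocount of 10 and to -2.765 over members with a mean of at least 100. With that filter the HCC1806 secreted medians were -2.199 for JQ1 and 0.074 for GSK2801, and the SUM159 pathway median for the combination was -0.162. Over all members above 0 the MDAMB231 secreted median for the combination was -1.194. With quantile normalization the pathway medians for the combination were -0.067 in SUM159 and -0.044 in HCC1806. Of 1036 single-gene values, 712 stayed past the threshold, 324 did not and 0 changed sign. Fewer genes or libraries enter the filters and leave-outs by construction, and otherwise the cause was not tested. With 1 culture per line and treatment, values near 0 limit CSF2, CSF3, MMP3 and the members below the filter.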
